A study of Mus musculus with 52 samples.

Results

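The adult and embryonic globin genes of the mouse were followed in single daughter cells of erythroid progenitors. The 7 genes were chosen by symbol from 49466 genes, and all 7 were present in both count tables. They are the adult alpha genes Hba-a1 and Hba-a2, the adult beta genes Hbb-bs and Hbb-bt, and the embryonic genes Hba-x, Hbb-y and Hbb-bh1.

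The cells came from fetal livers of C57/Bl6J mice at embryonic day 14.5 and were sorted as burst-forming unit-erythroid (BFU-E) cells, early progenitors committed to the red cell lineage. Each founder was cultured alone in a well, either with 100 nM dexamethasone, a synthetic glucocorticoid, or untreated in the same medium. After 16 hours, a founder that had completed a single division gave a pair of daughters, and the polyadenylated RNA of each daughter was sequenced as a library of its own. There were 13 dexamethasone pairs and 13 untreated pairs, and the founder with its well was the replicate. The labels name no animal for any pair, so the treatment p-values measure the spread between founders, which may share an embryo. The later test of differences between founders instead measures them against the spread between sister cells.

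Hemoglobin is built from alpha-like and beta-like chains, each holding a heme group. The alpha-like genes lie together in a cluster on chromosome 11 and the beta-like genes in another on chromosome 7, and each cluster has its own distal enhancers, so that red cell precursors have to match the output of separate loci. In the mouse, primitive red cells of the yolk sac make the embryonic chains, and definitive red cells, which arise in the fetal liver, make the adult chains. Progenitors such as BFU-E cells make little globin, and transcription rises steeply as the precursors mature under erythropoietin.

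In the annotation of GRCm38, Hba-x (ENSMUSG00000055609) spans chr11:32276400-32278116, Hba-a1 (ENSMUSG00000069919) spans chr11:32283511-32284465 and Hba-a2 (ENSMUSG00000069917) spans chr11:32296489-32297298, all on the plus strand. Hbb-bt (ENSMUSG00000073940) spans chr7:103812524-103813996, Hbb-bs (ENSMUSG00000052305) spans chr7:103826534-103828096, Hbb-bh1 (ENSMUSG00000052217) spans chr7:103841637-103843164 and Hbb-y (ENSMUSG00000052187) spans chr7:103851749-103853216, all on the minus strand. All 7 are annotated as protein coding. The members of each adult set are near copies. Of the 50-base stretches in the transcripts of Hba-a1, 72.3% also occurred in Hba-a2, and 89.3% of those of Hba-a2 occurred in Hba-a1. The corresponding shares were 53.2% for Hbb-bs and 58.3% for Hbb-bt, while the embryonic genes shared 0 such stretches with any gene. The labels do not state how reads that fit both copies were counted, so the division of reads between Hba-a1 and Hba-a2, and between Hbb-bs and Hbb-bt, is uncertain. The alpha sum and the beta sum do not depend on that division, but they would lack any reads left out for fitting both copies. Such stretches were a larger part of the alpha transcripts, so the level of an alpha to beta ratio is uncertain as well.

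The promoters of the adult genes are shown because the alpha copies and the beta copies varied together across founders. Each sequence is the 120 bases before the RefSeq start of the gene in GRCm38.p6, read 5′ to 3′ on the strand of the gene. These starts lie inside the gene spans given above. The windows of Hba-a1 and Hbb-bs therefore lie within those spans, and that of Hbb-bt in part. Capitals mark matches to letters that were searched for on both strands. These were CACCC, then CCAAT (which appears as ATTGG where it lies on the opposite strand), and ATATAA in the place of a TATA box; they did not overlap.
Hba-a1, chr11:32283552-32283671, plus strand: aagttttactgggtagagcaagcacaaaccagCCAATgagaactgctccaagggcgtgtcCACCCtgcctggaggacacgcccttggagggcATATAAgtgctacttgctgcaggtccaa
Hbb-bs, chr7:103827929-103828048, minus strand: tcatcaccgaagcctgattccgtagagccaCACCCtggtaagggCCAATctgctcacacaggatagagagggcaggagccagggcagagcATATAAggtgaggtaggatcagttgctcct
Hbb-bt, chr7:103813924-103814043, minus strand: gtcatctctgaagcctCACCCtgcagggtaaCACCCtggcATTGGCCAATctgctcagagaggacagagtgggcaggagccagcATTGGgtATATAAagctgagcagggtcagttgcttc

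CACCC is the core of the element bound by the erythroid factor Klf1, CCAAT is bound by NF-Y, and ATATAA is a TATA-like element. In Hba-a1 the CCAAT match began 88 bases and the CACCC match 60 bases before the start, so the order along the strand was CCAAT and then CACCC. In Hbb-bs the CACCC match began 90 bases and the CCAAT match 76 bases before the start, the opposite order. Hbb-bt held CACCC at 104 and 89 bases and CCAAT at 80, 75 and 36 bases before the start, of which those at 80 and 36 were on the opposite strand. The ATATAA match began 28 bases before the start in Hba-a1, 30 in Hbb-bs and 29 in Hbb-bt. Among 32851 mouse promoters of the same length, CACCC occurred in 31.7%, CCAAT in 21.3% and the TATA-like letters, ATATAA or the variant ATAAAA, in 11.6%. The GATA letters, AGATAA or the variant TGATAA, present in 7.6% of promoters, were in 0 of the 4 adult windows and in that of Hba-x. The windows of Hba-a1 and Hba-a2 were the same at all 117 bases compared, and those of Hbb-bs and Hbb-bt at 88 of 119 bases (73.9%). Between an alpha and a beta copy 32.8% to 38.1% of the bases were the same at the best offset. RefSeq windows were matched for 6 of the 7 genes, and Hbb-bh1 was not matched.

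Of 52 libraries, 48 held at least 100000 counts, with 210383 to 4176347 counts in the dexamethasone libraries and 225519 to 5606500 in these untreated libraries. Untreated pairs 4, 7 and 12 each held a library under 100000 counts and were left out, which left 13 dexamethasone and 10 untreated pairs. A count of 3 reads corresponded to 0.718 to 14.3 CPM (counts scaled to the same library total) in the dexamethasone libraries and to 0.535 to 13.3 CPM in the untreated libraries, and such limits cover counting error only. The libraries were checked for late erythroid markers and for markers of other blood lineages, which does not establish the BFU-E stage. Of the 26 dexamethasone libraries 22, and of the 22 untreated libraries 18, held at least 3 of 19 late erythroid markers at 10 CPM or more. At least 3 of 12 megakaryocyte markers reached that level in 13 of 26 dexamethasone and 10 of 22 untreated libraries. Of these markers Rap1b (21 and 17 libraries) and Cd9 (16 and 15) reached it most often. At least 3 of 15 granulocyte and monocyte markers reached 10 CPM in a daughter of 7 pairs, dexamethasone pairs 6, 7, 10 and 12 and untreated pairs 5, 9 and 10, although the cells had been depleted with antibodies against granulocyte surface proteins. The summed level of that list ran from 0 to 26568 CPM in dexamethasone and from 0.3 to 41617 CPM in untreated libraries, and Cebpe, Fcnb and S100a9 had no read in any of them. These 7 pairs stayed in the comparisons, and the tests over all genes were repeated without them.

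Hbb-bs and Hba-a1 were read in nearly every cell, Hbb-bt and Hba-a2 in most cells and the embryonic genes in almost none. A level of 10 CPM was reached less often. Of the 46 libraries of the 23 pairs, Hbb-bs reached it in 37, Hba-a1 in 34, Hbb-bt in 22, Hba-a2 in 15 and each embryonic gene in 1. Among the 48 libraries, Hbb-bs had a read in 47, Hba-a1 in 45, Hba-a2 in 41 and Hbb-bt in 38, whereas Hba-x, Hbb-y and Hbb-bh1 each had a read in 2. Per kilobase of exon, the median level over these libraries was 201 CPM for Hbb-bs, 101 CPM for Hba-a1, 17.7 CPM for Hbb-bt and 7.15 CPM for Hba-a2. Each locus thus had a copy with most of the assigned reads. Hba-a1 took a median of 94.8% of the alpha reads in 9 dexamethasone pairs and 96.2% in 6 untreated pairs with at least 100 alpha reads. Hbb-bs took a median of 83.1% of the beta reads in 10 dexamethasone pairs and 90.5% in 9 untreated pairs with at least 100 beta reads.

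The levels of all 4 adult genes spread over orders of magnitude between founders. Values of a pair are CPM of the summed reads of its daughters. Hba-a1 was lowest at 0.557, had a median of 104 and was highest at 3105 CPM over the 13 dexamethasone pairs, against 0.583, 90.5 and 1015 CPM over the 10 untreated pairs. The dexamethasone pairs covered the whole untreated range, with 1 pair below and 1 above it. Hba-a2 was at 0, 6.32 and 180 CPM in dexamethasone pairs, against 0.950, 4.22 and 69.7 CPM in untreated pairs, and again the groups overlapped. Dexamethasone pair 9 had the highest Hba-a1 and Hba-a2 among dexamethasone pairs and untreated pair 1 the highest among untreated pairs.

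For the beta genes the middle of the 2 groups lay further apart. Hbb-bs was lowest at 1.52, had a median of 114 and was highest at 5955 CPM in dexamethasone pairs, against 5.44, 758 and 5283 CPM in untreated pairs. In 12 of 13 dexamethasone pairs Hbb-bs was below the untreated median, and the other one, pair 9, was above every untreated pair. In the other direction, only 6 of 10 untreated pairs were above the dexamethasone median of Hbb-bs. Hbb-bt was at 0, 17.2 and 399 CPM in dexamethasone pairs, against 0.583, 97.0 and 491 CPM in untreated pairs. It was below the untreated median in 11 of 13 dexamethasone pairs, the exceptions being pairs 4 and 12. Of the 10 untreated pairs 6 were above the dexamethasone median, and 2 exceeded every dexamethasone pair.

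**Figure D1:**
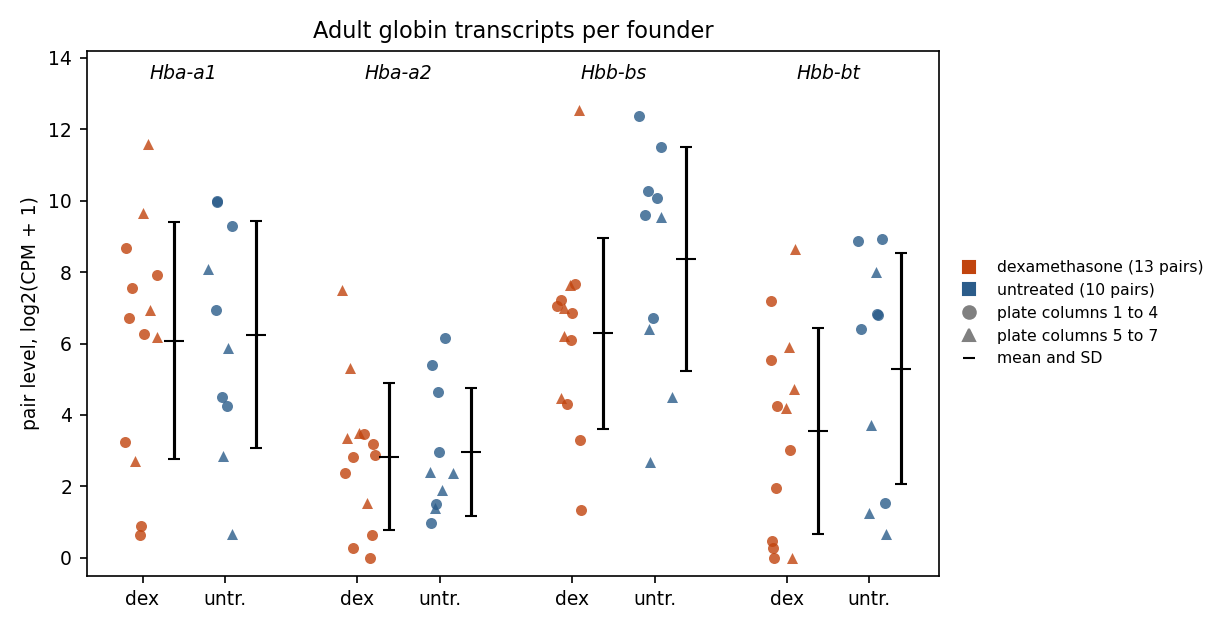
Level of each adult globin gene per founder, as log2(CPM + 1) of the summed reads of both daughters, in 13 dexamethasone pairs and 10 untreated pairs. Circles are pairs from plate columns 1 to 4, triangles pairs from columns 5 to 7, and bars give mean and SD. The groups overlap in every gene, and a single dexamethasone triangle, pair 9, stands at the top for Hba-a1, Hba-a2 and Hbb-bs.

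The comparison of treatments asked whether dexamethasone changed globin transcripts within 16 hours. None of the 4 adult genes passed. On the log2 scale, Hba-a1 averaged 6.08 ± 3.32 in dexamethasone pairs and 6.24 ± 3.18 in untreated pairs (SD, n = 13 and n = 10 pairs), and its edgeR log2 fold change was 0.44 ± 1.08 (SE). Hbb-bs averaged 6.28 ± 2.67 in dexamethasone pairs and 8.37 ± 3.15 in untreated pairs, and its log2 fold change was -1.07 ± 1.06 (SE). The estimates were 0.53 ± 1.08 for Hba-a2 and -1.29 ± 1.17 for Hbb-bt (SE), so both alpha estimates were positive and both beta estimates negative. In edgeR's quasi-likelihood test with Benjamini-Hochberg adjustment over 7190 genes, each of the 4 had an adjusted p of 1. Across all genes that test called 0 genes (0% in either direction), with 71 at an unadjusted p under 0.05. DESeq2 and limma also called 0 genes, with 173 and 304 at an unadjusted p under 0.05. The embryonic genes did not reach the expression filter of that test. Without the filter, edgeR called 0 of 18628 genes (0% in either direction), with 3331 at an unadjusted p under 0.05. The adjusted p was then 0.0721 for Hba-x, 0.0725 for Hbb-y and 0.0721 for Hbb-bh1, each of which had nearly all of its reads in a single cell and none in 1 of the 2 treatments, so no fold is given.

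The treatment estimates depended on which founders entered. Without dexamethasone pair 9, the log2 fold change was -3.63 ± 0.86 for Hbb-bs, -0.77 ± 1.01 for Hba-a1 and -0.85 ± 0.92 for Hba-a2 (SE), so both alpha estimates changed sign. Hbb-bs then had the smallest unadjusted edgeR p of 7091 genes (0.000282), but 0 genes were called after adjustment. For Hbb-bt the pair with most influence was dexamethasone pair 12, without which its log2 fold change was -2.50. Without the 7 granulocyte-marked pairs Hbb-bt was at -2.73 ± 1.07 (SE, edgeR p = 0.0201, adjusted p = 1) and Hbb-bs at -1.15 ± 1.15 (SE), and 1 of 7574 genes was called, higher with dexamethasone (0.0132%).

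The estimates also had opposite signs in the 2 parts of the library plate, a difference that did not pass its test. Untreated libraries lay in columns 1, 2, 5 and 6 of the library plate and dexamethasone libraries in columns 3, 4, 6 and 7, so columns 1 to 4 and columns 5 to 7 each held both treatments. In columns 1 to 4 (8 dexamethasone and 6 untreated pairs), Hbb-bs ran from 1.52 to 204 CPM in dexamethasone pairs, against 103 to 5283 CPM in untreated pairs. Its log2 fold change there was -4.44 ± 0.93 (SE), with an unadjusted edgeR p of 0.000219, the third smallest of 7789 genes, and an adjusted p of 0.568. In the same columns the estimates were -2.96 ± 1.35 for Hbb-bt, -1.89 ± 1.16 for Hba-a1 and -2.45 ± 1.20 for Hba-a2 (SE), all negative. Without the granulocyte-marked pairs Hbb-bs was at -4.34 ± 0.87 (SE, edgeR adjusted p = 0.227), and 1 of 7860 genes was called, higher with dexamethasone (0.0127%).

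In columns 5 to 7 (5 dexamethasone and 4 untreated pairs) all 4 estimates were positive. Hbb-bs ran from 21.3 to 5955 CPM in dexamethasone pairs, against 5.44 to 745 CPM in untreated pairs. The 5955 CPM was that of dexamethasone pair 9. The other dexamethasone pairs there ran from 21.3 to 197 CPM, within the untreated range. The log2 fold change of Hbb-bs was 2.69 ± 1.72 (SE), and it was not fitted in these columns without pair 9. The values were 3.43 ± 1.79 for Hba-a1, 3.85 ± 1.80 for Hba-a2 and 1.03 ± 2.05 for Hbb-bt (SE). Of the pairs in these columns, 2 dexamethasone and 2 untreated pairs were granulocyte-marked. Untreated pairs 9 and 10, both granulocyte-marked, held 33.4 and 9.33 CPM over the 4 genes, and dexamethasone pair 12, also marked, held the highest Hbb-bt among dexamethasone pairs. Without all 4 marked pairs the estimates were 2.39 ± 2.24 for Hbb-bs, 2.70 ± 2.32 for Hba-a1, 4.43 ± 2.90 for Hba-a2 and -2.32 ± 2.52 for Hbb-bt (SE), so that of Hbb-bt changed sign. The part of untreated pairs 9 and 10 alone was not tested.

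The difference between the 2 plate sets was tested directly. The interaction, columns 5 to 7 minus columns 1 to 4, was 7.14 ± 2.06 for Hbb-bs (SE, edgeR p = 0.00205, adjusted p = 0.353), 6.27 ± 2.09 for Hba-a2 (adjusted p = 0.407), 5.33 ± 2.23 for Hba-a1 (adjusted p = 0.605) and 3.84 ± 2.51 for Hbb-bt (adjusted p = 1). It called 0 of 7190 genes (0% in either direction), with 451 at an unadjusted p under 0.05. Without the granulocyte-marked pairs it called 9 of 7574 genes, all with the lower estimate in columns 5 to 7 (0.119%) and none of them a globin gene, while Hbb-bs was at 6.72 ± 2.41 (SE, adjusted p = 0.432). Dexamethasone pair 9 lay in columns 5 to 7, and the interaction was not fitted without it. Except in column 6, dexamethasone and the plate column cannot be told apart.

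**Figure D2:**
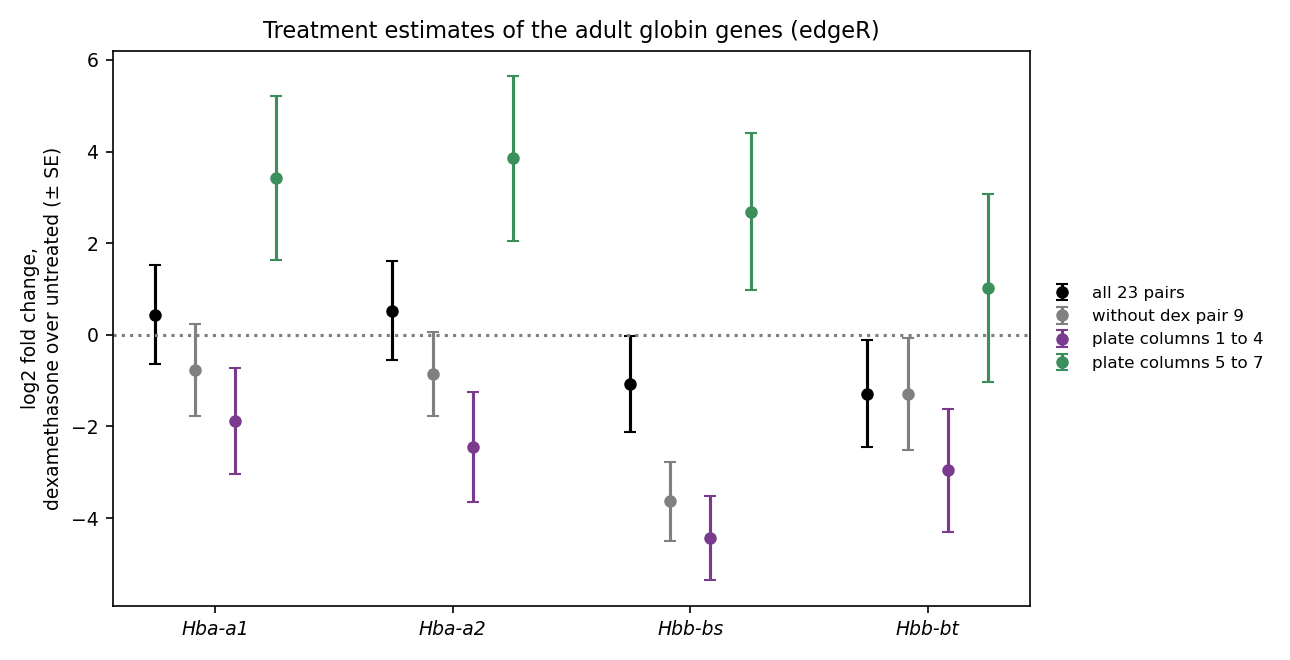
Log2 fold change, dexamethasone over untreated, with its standard error from edgeR for the 4 adult globin genes, in all 23 pairs, without dexamethasone pair 9, in plate columns 1 to 4 and in columns 5 to 7. The estimates of columns 1 to 4 lie below 0 and those of columns 5 to 7 above 0 for every gene.

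Alpha and beta output were compared within founders. The balance was the log2 ratio of alpha to beta reads per kilobase of exon, in pairs with at least 100 adult globin reads. To the count of each gene 0.5 reads were added before it was divided by length and summed. The balance was -0.31 ± 1.74 in dexamethasone pairs and -2.25 ± 2.15 in untreated pairs (SD, n = 10 and n = 9). The difference of 1.94 is about the size of the SDs, and no test was run. Beta exceeded alpha per kilobase in 5 of 10 dexamethasone pairs and in 8 of 9 untreated pairs. The ratio ran from -4.05 in pair 11 to 2.48 in pair 5 among dexamethasone pairs, against -5.95 in pair 2 to 1.43 in pair 13 among untreated pairs, so the groups overlapped widely.

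The extremes rested on unequal numbers of reads. Dexamethasone pair 5 held 2166 alpha and 366 beta reads, and dexamethasone pair 11 held 39 alpha and 662 beta reads. Cell 1 of pair 11 held only 50 adult globin reads, and without that pair the difference between treatments was 2.36. Untreated pair 2 held 85 alpha and 5104 beta reads, and untreated pair 13 held 2826 alpha and 982 beta reads. Within plate columns 1 to 4 the means were 0.06 in dexamethasone and -2.74 in untreated pairs, a difference of 2.79. In columns 5 to 7 they were -0.67 in dexamethasone and -1.28 in untreated pairs, a difference of 0.61 with 5 and 3 pairs. Leaving out the granulocyte-marked pairs gave a difference of 1.95. With at least 1000 reads asked of a pair the difference was 2.42, over 8 dexamethasone and 7 untreated pairs.

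Alpha and beta levels varied together across founders without keeping a fixed ratio. Over the 23 pairs the log2(CPM + 1) of the alpha sum and of the beta sum correlated with a Pearson r of 0.78, and with an r of 0.68 over the 16 pairs without granulocyte marks. By ranks the correlation was weaker, with a Spearman rho of 0.68 over the 23 pairs and 0.49 over the 16. The copies within a locus correlated at 0.86 (Hba-a1 and Hba-a2) and 0.79 (Hbb-bs and Hbb-bt), and reads that fit both copies can add to these values. Across loci, Hba-a1 and Hbb-bs correlated at 0.75 over the 23 pairs and at 0.67 over the 16 pairs (Spearman rho 0.69 and 0.52). The ratio itself had an r of -0.20 with the total adult globin level over 19 pairs. All pairs share a sequencing design and differ in depth, so these values are descriptions and carry no test.

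Of the 4 adult genes, Hba-a1 had the smallest average difference between sister cells. For Hba-a1, log2(CPM + 1) differed by 0.84 ± 0.74 between daughters (SD, n = 23 pairs), whereas cells of different founders under the same treatment differed by 3.99 on average. Its intraclass correlation, the share of the variance that lay between founders, was 0.94, against a median of 0.16 over all genes tested. In all 23 pairs the daughters lay closer than that average for different founders. Hba-a1 was at 3052 and 3216 CPM in the daughters of dexamethasone pair 9 and at 994 and 1053 CPM in those of untreated pair 1, near-equal at the top of both groups.

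The average difference between sisters was larger for the beta genes. Hbb-bs differed by 2.04 ± 1.52 between daughters against 3.68 between founders, with an intraclass correlation of 0.73, and Hbb-bt by 2.33 ± 2.53 against 3.55, with an intraclass correlation of 0.44 (SD, n = 23 pairs). Hba-a2, with fewer reads, differed by 1.14 ± 0.93 against 2.34, with an intraclass correlation of 0.74. The 4 genes summed differed by 1.14 ± 0.81 against 3.47 and had an intraclass correlation of 0.90.

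**Figure D3:**
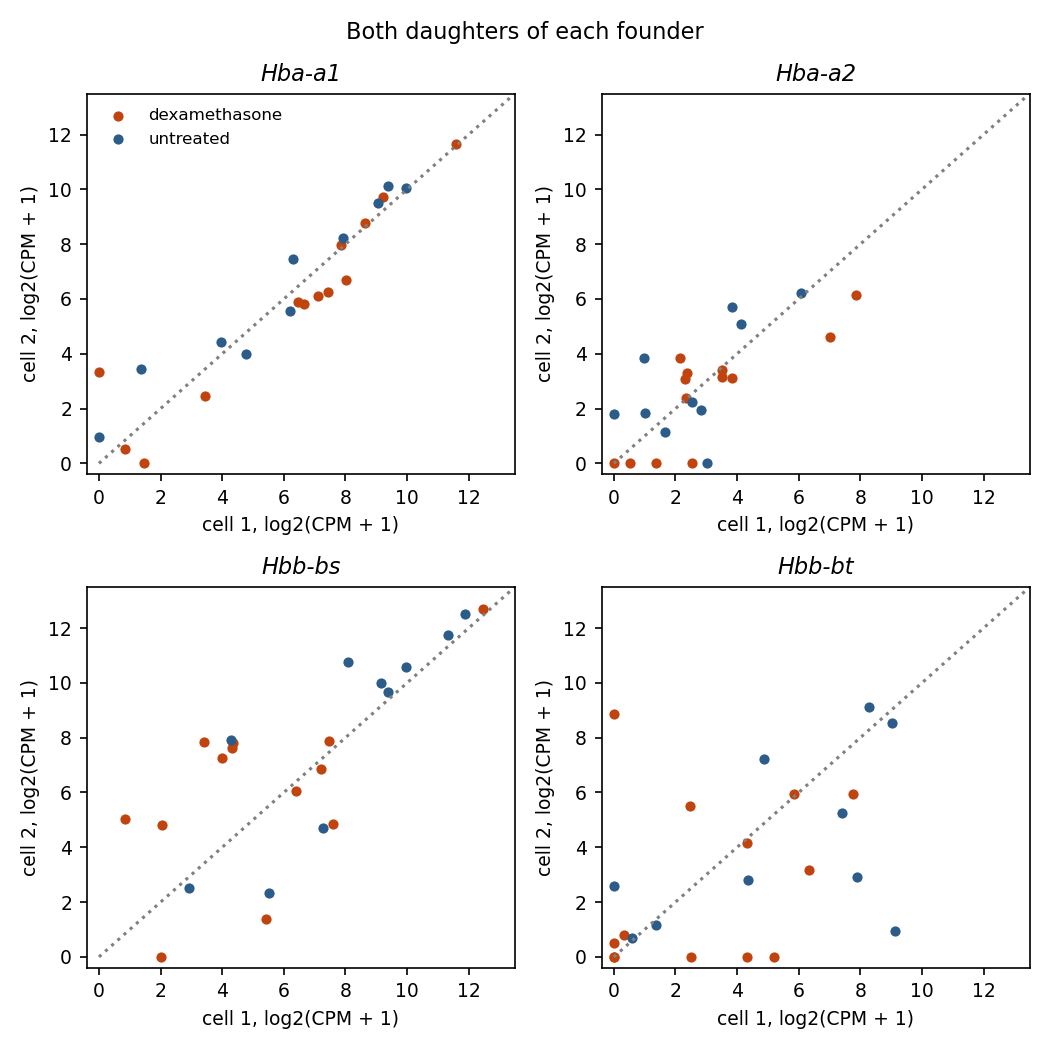
Level of each adult globin gene in cell 1 (horizontal axis) and cell 2 (vertical axis) of every founder, as log2(CPM + 1), for 13 dexamethasone and 10 untreated pairs; the dotted line marks equal levels. The points of Hba-a1 follow the line, and those of Hbb-bt spread along both axes.

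The founder test asked whether cells of different founders differed more than sisters did. It fitted 1 term per pair within each treatment to single libraries in edgeR. Of 8015 genes tested, 271 were called (3.38%), with 1571 at an unadjusted p under 0.05. With the shallow pairs added 262 of 8080 were called (3.24%). Of the 7 globin genes 4 were tested and 2 were called. Hba-a1 had an F of 12.2 and an adjusted p of 3.3e-06, the 7th smallest p of all genes, and Hbb-bs had an F of 6.15 and an adjusted p of 0.000664. Hba-a2 (adjusted p = 0.0714) and Hbb-bt (adjusted p = 0.151) did not pass. Within a treatment Hba-a1 passed in dexamethasone pairs alone (adjusted p = 0.00137) and in untreated pairs alone (adjusted p = 0.00485), as did Hbb-bs (0.018 and 0.0367). The calls over all genes were 171 (2.82%) in dexamethasone pairs and 35 (0.654%) in untreated pairs.

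The founder call of Hba-a1 also held within plate columns, with an adjusted p of 0.000134 among 75 genes called (0.936%). The call of Hbb-bs was lost there (adjusted p = 0.165). Without the granulocyte-marked pairs 39 of 7269 genes were called (0.537%), among them Hba-a1 (adjusted p = 0.00128) and Hbb-bs (adjusted p = 0.0222). Hba-a2 passed under other settings, with an adjusted p of 0.0101 in limma (8.12% of genes called), 0.0241 with RLE scaling (3.94%) and 0.0119 with at least 10 counts asked in 20 libraries (6.18%).

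In several founders most reads of a beta copy were in 1 daughter. Untreated pair 11 held 1535 Hbb-bt reads in cell 1 and 3 in cell 2, while Hbb-bs held 1858 and 2649 reads. Dexamethasone pair 12 held 0 Hbb-bt reads in cell 1 and 572 in cell 2, with Hba-a1 at 126 and 1038 reads, and cell 1 was the shallowest dexamethasone library. Dexamethasone pair 13 held 126 Hbb-bt reads in cell 1 and 0 in cell 2, with Hba-a1 at 305 and 221 reads. In each of these pairs the daughter with few or no reads of the copy still held other adult globin reads.

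In untreated pair 2 the shift was between the copies: Hbb-bs held 534 and Hbb-bt 470 reads in cell 1, against 4085 and 15 reads in cell 2. A daughter at 0 Hbb-bt reads occurred in 7 of 13 dexamethasone pairs, 2 of them with both daughters at 0, and in 1 of 10 untreated pairs, a difference that was not tested. A daughter at 0 Hba-a1 reads occurred in 2 dexamethasone pairs and in 1 untreated pair.

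The alpha to beta ratio was further apart, on average, between dexamethasone sisters than between untreated sisters, and no test of this ratio was run. Where both daughters held at least 100 adult globin reads, the log2 ratio differed by 2.31 ± 1.87 between dexamethasone sisters (SD, n = 9) and by 0.70 ± 0.99 between untreated sisters (SD, n = 7). Cells of different founders differed by 2.47 under dexamethasone and by 2.99 untreated, so dexamethasone sisters were about as far apart in this ratio as cells of different dexamethasone founders. The depth of globin reads was uneven between the groups: at least 1000 reads in each daughter were held by 2 of those 9 dexamethasone pairs and by all 7 untreated pairs. In these 2 pairs, 5 and 9, sisters differed by 2.79 and 0.23.

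The difference between daughters was tested gene by gene in limma. Relative to untreated pairs, the absolute difference of log2(CPM + 1) in dexamethasone pairs was larger by 0.90 ± 0.99 for Hbb-bs and 0.15 ± 0.36 for Hba-a1 (SE). It was -0.30 ± 0.52 for Hba-a2 and -0.02 ± 1.09 for Hbb-bt (SE). Adjusted p-values were 0.992 for the first 3 and 0.999 for Hbb-bt, and 0 of 8015 genes were called (0% in either direction), with 325 at an unadjusted p under 0.05.

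**Figure D4:**
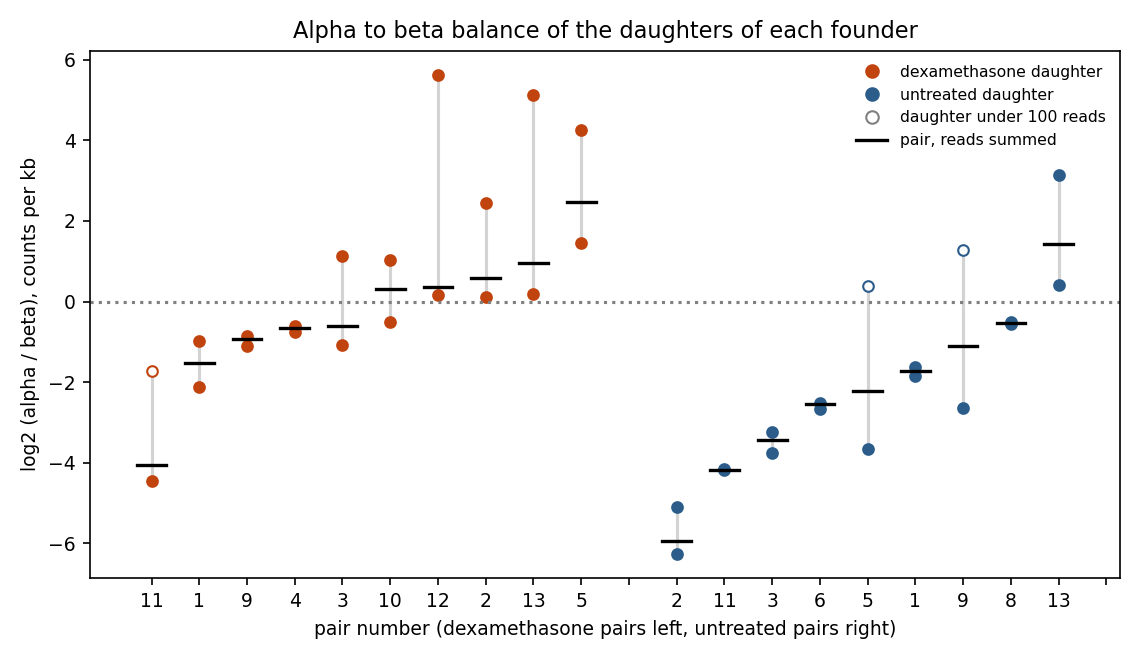
Log2 ratio of alpha to beta globin reads per kilobase of exon for each founder with at least 100 adult globin reads, dexamethasone pairs left and untreated pairs right, ordered by the ratio. Circles are the daughters, open where a daughter held under 100 reads, and black bars the summed reads of the pair. Dexamethasone pairs lie between -4.05 and 2.48 and untreated pairs between -5.95 and 1.43, and daughters lie up to 5.47 apart, in dexamethasone pair 12.

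The embryonic genes appeared as single cells with reads beside a sister without any. Hba-x, the zeta-like alpha gene of primitive red cells, held 502 reads (153 CPM) in cell 1 of dexamethasone pair 10 and 0 in its sister, and 1 read in cell 1 of dexamethasone pair 12. Hbb-y, the embryonic epsilon-y gene, held 40 reads (17.3 CPM) in cell 2 of dexamethasone pair 8, 0 in its sister, and 1 read in cell 1 of dexamethasone pair 6. Hbb-bh1, an embryonic beta gene, held 48 reads (12.7 CPM) in cell 1 of untreated pair 1, 0 in its sister, and 1 read in cell 1 of untreated pair 9. The 3 cells with more than 1 embryonic read came from 3 different founders. Per kilobase of exon, Hba-x was at 163 and Hba-a1 at 212 CPM in cell 1 of dexamethasone pair 10.

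In dexamethasone pair 8 the Hbb-y reads stood against 13 reads over all 4 adult genes, the fewest of any pair. Its daughters held 1712 and 1959 CPM over the late erythroid markers and 2387 and 1365 CPM over the megakaryocyte markers. Epor, the erythropoietin receptor, had 0 reads in both. In untreated pair 1 the Hbb-bh1 reads stood against 15648 adult globin reads in the same cell.

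The adult total spread widely both in pairs with granulocyte marks and in pairs without them, and the ranges overlapped. The 7 granulocyte-marked pairs had a median of 33.4 CPM over the 4 adult genes, ranging from 9.33 to 1446 CPM, and the 16 other pairs had a median of 481 CPM, ranging from 2.81 to 9298 CPM. The 1446 CPM was that of dexamethasone pair 12, which was marked by cell 1 alone. Its cell 2 held 1919 of the 2074 adult globin reads and 0 granulocyte markers at 10 CPM. In dexamethasone pairs 6 and 7 and untreated pairs 9 and 10, Klf1, a master activator of adult beta globin, was at or below 4.29 CPM in every cell and Mpo, a granule enzyme of myeloid cells, at or above 4621 CPM. Adult globin reads remained above 0 in all 8 of these cells, at 5.50 to 52.3 CPM. The founder calls of Hba-a1 and Hbb-bs without all 7 marked pairs are given above.

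Genes were ranked by how closely they followed the 4 adult genes summed, as the Pearson r over pair means of log2(CPM + 1) in 23 pairs. Across 7324 named genes the median r was 0.15. Among the 10 highest were Lmna, which encodes A-type lamins of the nuclear envelope (0.89), Blvrb, a biliverdin reductase of red cells (0.84), Epor (0.84), Slc39a8, a zinc importer (0.81), Smim1, which encodes the Vel blood group protein in humans (0.79), the sterol synthesis gene Lss (0.78), Rfesd (0.77) and Pklr, the pyruvate kinase of red cells (0.77). Over the 16 pairs without granulocyte marks Epor and Blvrb were highest, at 0.89 each, and Lmna was at 0.83.

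Among the 5 lowest were Pdcd4, a translation inhibitor (-0.86), Tmsb4x, an actin-binding peptide (-0.80), and Coro1a, an actin regulator of blood cells, and Coro2a (-0.78 each). Over the 16 pairs without granulocyte marks, Pdcd4 (-0.80) was among the 5 lowest and the other genes named here were not; Calm2, which encodes calmodulin, was lowest (-0.81). Lmna averaged 5.50 ± 3.66 in dexamethasone pairs and 6.80 ± 3.15 in untreated pairs, and Pdcd4 6.03 ± 1.57 in dexamethasone pairs and 5.50 ± 1.31 in untreated pairs, as log2(CPM + 1) averaged over daughters (SD, n = 13 and n = 10). These correlations share libraries and depth and carry no test.

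Factors that act on the globin loci were examined as lists. Of 16 activators and enhancer-binding factors 15 were tested, and 0 passed for treatment. Their estimates were positive for 4 and negative for 11, with a median log2 fold change of -0.34 against 0.02 over all genes. Of all 7190 genes 3495 had a negative estimate, and the sign count was not tested. Nfe2, whose product binds the beta-globin enhancers, was at 1.03 ± 0.80 and Ctcf, a factor of chromatin boundaries, at -1.01 ± 1.00 (SE). Gata1, the main transcription factor of red cells, was at 0.31 ± 0.80 and Klf1 at 0.23 ± 0.83 (SE), and both were slightly negative in limma (-0.07 and -0.09).

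In the founder test 2 of these 15 factors were called, Klf1 (adjusted p = 3.69e-06) and Gata1 (adjusted p = 0.000199), where 3.38% of all genes were. Mafk and Mafg, partners of Nfe2, were at adjusted p = 0.118 and 0.167. Without the granulocyte-marked pairs 0 of 15 were called, where 0.537% of all genes were, a share at which a list of this length need not hold any call. Klf1 followed the adult total with an r of 0.71 over 23 pairs and 0.67 over 16 pairs, and Gata1 with 0.59 over 23 pairs and 0.00 over 16 pairs.

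Of 22 genes of globin switching and repression, which keep embryonic or fetal globin genes silent in adult cells or delay that silencing, 18 were tested for treatment and 0 passed. The estimates were positive for 8 and negative for 10, with a median of -0.08. Myb, a progenitor factor, was at 1.36 ± 0.98 and Bach1, a heme-regulated repressor, at -1.59 ± 1.30 (SE). In the founder test 0 of 19 were called, where 3.38% of all genes were. Bach1, Arid3a, Dnmt1 and Lin28b had the smallest adjusted p-values, from 0.232 to 0.283.

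The genes that supply heme, iron and protection to globin gave 15 tested of 20, of which 0 passed for treatment. Their estimates were positive for 2 and negative for 13, with a median of -0.38. Over all genes 3495 of 7190 estimates were negative, with a median of 0.02, and the sign count of this list was not tested. Tfrc, the transferrin receptor, was at -0.89 ± 0.65 and Cpox, an enzyme of heme synthesis, at -1.11 ± 0.96 (SE). In the founder test 0 of 17 were called, where 3.38% of all genes were. Alas1, which starts heme synthesis outside red cells, had an adjusted p of 0.0539, Cpox 0.0565, Tfrc 0.0714 and Alad, the next enzyme of the heme pathway, 0.0892. Without the granulocyte-marked pairs 2 of 17 were called, where 0.537% of all genes were. These were Alad (adjusted p = 0.00946) and Prdx2, which encodes a peroxiredoxin of red cells (adjusted p = 0.0222).

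Late erythroid markers were examined beside the globin genes. In the founder test 10 of 17 were called, where 3.38% of all genes were. Among them were Cd24a (adjusted p = 3.06e-06), a surface protein on which the cells were sorted, and Ermap (adjusted p = 8.47e-05). Without the granulocyte-marked pairs 3 of 17 were called, where 0.537% of all genes were. For treatment 0 of 16 passed, with 11 positive and 5 negative estimates. Kel, a blood group gene, averaged 4.28 ± 3.73 in dexamethasone pairs and 5.14 ± 2.67 in untreated pairs, as log2(CPM + 1) averaged over daughters (SD, n = 13 and n = 10). Its edgeR estimate was 4.93 ± 1.80 (SE, adjusted p = 1), with 1 dexamethasone library, cell 2 of the granulocyte-marked pair 10, at 66541 CPM. The estimate had the opposite sign in DESeq2 (-1.54), in limma (-0.86) and without the granulocyte-marked pairs (-1.85 ± 0.70, SE), so Kel had no settled direction. Markers of later precursors were sparse: Slc4a1, the anion exchanger of red cells, had a read in 2 of 26 dexamethasone and 3 of 22 untreated libraries, and Epb42, a membrane skeleton gene, in 0 of 26 dexamethasone and 6 of 22 untreated libraries. Alas2, which starts heme synthesis in red cells, had a read in 8 of 26 dexamethasone and 10 of 22 untreated libraries, whereas Hbb-bs had one in 25 of the 26 and all 22.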

How the data were processed

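The authors deposited 1 table of raw counts per treatment, whole numbers of reads per gene without normalization. GRCm38 was the genome build, with STAR 2.4 and featureCounts named as software, per the submitters' processing notes. The sources used here do not give the library kit, the strand setting or how a read that fits several genes was handled. Each column matched the description of 1 sample, 0 columns were left unused and 0 libraries were identical. Gene positions and exon lengths came from GENCODE M21 and promoters from RefSeq.

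The members, lists, tests and settings were chosen with earlier results of these data known. Pairs with both libraries at 100000 counts or more were used, and a pair was marked when a daughter held 3 granulocyte markers at 10 CPM. Treatment was tested on summed counts of a pair with edgeR 4.0.16 in R 4.3.3 (TMM, filterByExpr, glmQLFTest). Founder terms were tested on single libraries for genes with at least 5 counts in 10 libraries, and daughter differences with limma 3.58.1, its trend and a pseudocount of 1 CPM. P-values were adjusted by Benjamini-Hochberg over all genes tested, and an adjusted p under 0.05 was called. A standard error is the estimate divided by the square root of F. DESeq2 1.42.0 was an alternative. The fits were tested on simulated data. Besides the 7 members, the named genes of each list were up to 4 with the smallest founder p and up to 2 with the smallest treatment p, and the 10 highest and 5 lowest in likeness to the adult total; a few of these are not reported here. Gata1 and Klf1 by treatment, dexamethasone pair 8, Slc4a1, Epb42, Alas2, and the daughters with split copies were named after their values were seen.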

Additional observations from a re-analysis of the deposited data

Results flagged for a closer look

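Hbb-bh1 in untreated pair 1 stood apart from the other untreated pairs. It was at 3.19 log2(CPM + 1) there, from 48 reads in 1 daughter, and the nearest of the other 9 pairs was at 0.23. The gap took up 0.928 of the range of the 10 pairs, more than Dixon's 95% critical value for 10 samples. Hbb-bh1 had 0 reads in 8 of the 10 pairs, so a single cell with reads is bound to stand apart, and the rate at which chance gives such a gap between normally distributed values, about 1 in 20, does not apply. The 7 groups of values examined in this way were the 4 adult genes and Hbb-bh1 in untreated pairs and the alpha to beta ratio under each treatment, and none of the others had such a gap. Levels in the 13 dexamethasone pairs were not examined so, and there Hba-x in pair 10, at 6.20 log2(CPM + 1) with the next pair at 0.76, stood apart in the same way.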

How the results depend on the processing

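For treatment 0 genes were called in the main comparison and in 35 of 37 alternatives; without the granulocyte-marked pairs, over all columns and in columns 1 to 4, 1 gene was called (Tsc22d3, a glucocorticoid target, higher with dexamethasone). Leaving out each pair in turn gave 0 calls every time. The log2 fold changes then ran from -0.77 to 0.85 for Hba-a1, from -0.85 to 1.20 for Hba-a2, from -3.63 to -0.40 for Hbb-bs and from -2.50 to -0.87 for Hbb-bt. The sign changed for Hba-a1 in limma (-0.22), with the plate set as covariate (-0.41), in columns 1 to 4 (-1.89) and there without marked pairs (-1.74), and without dexamethasone pair 9 (-0.77). For Hba-a2 it changed in DESeq2 (-0.87), limma (-0.008), with the plate set as covariate (-0.86), in columns 1 to 4 (-2.45) and there without marked pairs (-2.32), and without pair 9 (-0.85). For Hbb-bs it changed in columns 5 to 7 (2.69; 2.39 without marked pairs) and for Hbb-bt in columns 5 to 7 (1.03). The cause was not tested.

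With the pair number as a replicate block, 0 genes were called and the log2 fold changes were -0.57 for Hba-a1, 0.34 for Hba-a2, -2.50 for Hbb-bs and -2.53 for Hbb-bt. Same-numbered pairs deviated together, at a correlation above 0.1, in 1 of 10 numbers (correlations of -0.11 to 0.12). With 1 pair per number in each treatment, this check cannot exclude a small effect shared by same-numbered pairs. The main comparison used no block.

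Founder calls numbered 271, against 651 in limma, 75 within plate columns, 39 without marked pairs, 171 in dexamethasone and 35 in untreated pairs; the last 3 use fewer libraries. Hbb-bs missed the threshold within columns (adjusted p = 0.165), and Hba-a2 passed in limma (0.0101), with RLE scaling (0.0241) and with 10 counts in 20 libraries (0.0119). Hba-a1 kept its call in all 8 alternatives. The daughter difference by treatment changed sign, near 0, for Hba-a2 with a pseudocount of 10 (0.001) and for Hbb-bt with the plate set (0.002). The balance difference of 1.94 ranged from 0.61 to 2.79 over 26 alternatives, and from 1.48 to 2.4 when a pair was left out. Pairs under 100 adult globin reads (dexamethasone 6, 7 and 8, untreated 10) gave no ratio at this depth.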

Other observations

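Genes of the regions around the globin clusters were tested with the members. Of 13 listed, 6 were tested for treatment and for founders, and 0 passed in either. Of all genes 0% passed for treatment and 3.38% for founders. For treatment 3 estimates were positive and 3 negative, with a median log2 fold change of 0.01. Rrm1, a subunit of ribonucleotide reductase on the chromosome of the beta cluster, was at -0.45 ± 0.36, and Mpg, a DNA glycosylase gene beside the alpha cluster, at 0.70 ± 1.24 (SE, edgeR, adjusted p = 1 each). Without the granulocyte-marked pairs Mpg was at -0.10 ± 1.31 (SE). Luc7l had the smallest founder p of the list (adjusted p = 0.21), followed by Nprl3, whose introns hold the alpha enhancers (0.284), Stim1 (0.313) and Mpg (0.518).

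Other globin family genes had few reads. Hbq1a, a theta-like alpha gene, held 31 reads in cell 1 of untreated pair 1, the cell with the Hbb-bh1 reads. Hbq1b, its copy, held 4 reads in 1 dexamethasone library, and 5, 5 and 18 reads in 3 untreated libraries. Ngb, which encodes neuroglobin, held 143 reads in cell 1 of dexamethasone pair 3 and 0 in its sister, and 1 read in an untreated library. Myoglobin, cytoglobin, Hbb-bh0, Hbb-bh2 and Hbb-bh3 had no read in the 48 libraries with at least 100000 counts.

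Of 15 granulocyte and monocyte markers 4 were tested in the founder test. All 4 were called, led by Mpo (adjusted p = 4.23e-08) and Prtn3 (3.29e-07). The granulocyte-marked pairs were marked by this same list, so these calls are no separate result. Without those pairs 1 marker was tested and 0 called. Of the megakaryocyte markers 2 of 6 were called, among them Itga2b (0.0209), and 0 of 3 without the marked pairs. Over all genes 3.38% were called, and 0.537% without the marked pairs. For treatment 0 of 2 granulocyte and monocyte markers and 0 of 3 megakaryocyte markers passed. Mast cell, stem cell and lymphoid, macrophage and hepatocyte markers gave no tested gene.

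The 4 libraries under 100000 counts, all untreated, held 30 adult globin reads of 13575 counts and 0 of 0 in pair 4, 6 of 5733 in pair 7 and 3 of 11791 in pair 12.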
